A study of Rattus norvegicus with 72 samples.

Results

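Dynein, dynactin and the kinesins are the motors that carry cargo along microtubules, and the genes described here are those whose single annotated symbol on the array names a cytoplasmic dynein subunit (Dync1 and Dync2 genes), a dynein light chain (Dynl genes), a dynactin subunit, a kinesin (Kif genes) or a kinesin light chain (Klc genes). The array named 52 such genes, and 47 of them passed the filter on dim genes and were tested among 12276 genes in all. The other 5, Kif18a, Kif18b, Kif1b, Kif20b and Kif6, lay below the filter level of 5.46 log2. Probe sets that the annotation shares between Dynll1 and Dynll1l1, between Dctn3 and Dctn3l1, and between Kif1b and 3 other genes carry several symbols and were not analysed. Each gene was represented by its brightest probe set over all arrays.

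RNA came from the L4 and L5 dorsal root ganglia, at lumbar level, of 8- to 12-week Wistar rats. The rats had a crush lesion of the sciatic nerve or, under the label Sham, sham surgery. The 72 arrays carried the lesion label Distal (29 arrays), Proximal (22 arrays) or Sham (21 arrays), each at 8 times between 1 and 28 h (1, 3 and 8 h early, 12 and 16 h, and 18, 24 and 28 h late), and the labels name no other treatment or genotype. Groups of 1 lesion and hour held 1 to 6 arrays. The labels do not say whether arrays of a group came from separate animals, so the p-values rest on a spread between arrays that may be technical only. In a whole ganglion, fewer cells of a type and less RNA per cell cannot be told apart.

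In a sensory neuron the cell body makes the motors for an axon that is very long. Kinesins move mostly outward along axonal microtubules with membrane proteins, synaptic vesicle precursors and mitochondria, and cytoplasmic dynein with its activator dynactin moves cargo back to the cell body. After nerve injury dynein is known to carry injury signals, bound to importins and kinases, from the lesion to the ganglion. A separate group of kinesins works on the mitotic spindle and is known mainly from dividing cells, and cytoplasmic dynein 2 works inside cilia.

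Between the Proximal and Sham labels an injury response showed in Atf3, a transcription factor induced in injured neurons. It was 12.3-fold higher in proximal than in sham ganglia at 18 to 28 h. Atf3 also rose 4.03-fold between 1 to 8 h and 18 to 28 h within sham. Its distal values are not given here. Clustering on dim probe sets, cut at 4 groups, split the arrays into 4 sets. They are called technical sets here, a name that the labels do not give. Of the 29 distal arrays 27 made up set A, without any proximal or sham array, so distal and sham levels cannot be told apart from this set difference. Proximal and sham arrays lay in the same sets at 1, 3, 8, 12, 18, 24 and 28 h, so these pairs could be compared within sets. Sensory neuron markers had array means of 11.44 to 12.13 log2 in all arrays. The mean of skeletal muscle markers, another tissue, ranged over 5.68 to 10.68 log2 between arrays, and its part in the values below was not tested.

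Proximal and sham ganglia were first compared late after the lesion, at 18, 24 and 28 h. Of the 47 motor genes 3 rose (Kif22, Kif15 and Kif3b), 2 fell (Kif26b and Dctn1) and 42 were not called, where a call is a Benjamini-Hochberg adjusted p under 0.05 in limma. Among all genes tested, 5.35% were called higher and 4.36% lower in this comparison, so the motor genes' 5 calls lie near that background. The median log2 difference was -0.02 over the motor genes and -0.016 over all genes. Single motor genes lay between -0.53 and 1.17.

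Kif22, a kinesin known from the mitotic spindle, where it pushes chromosome arms, was the motor gene with the largest difference. Its log2 level in proximal ganglia was 8.78, 8.62 and 8.91 at 18 h, 9.25, 8.92 and 9.01 at 24 h and 9.18, 8.87 and 9.04 at 28 h. In sham ganglia it was 7.66, 7.88 and 7.61 at 18 h, 7.55, 7.97 and 8.34 at 24 h and 7.76, 7.63 and 7.64 at 28 h. Each of the 9 proximal arrays exceeded all 9 sham arrays. Within proximal ganglia the 24 h arrays all lay above the 18 h arrays, and the 28 h arrays overlapped both, while the hours of sham ganglia overlapped. The means were 8.95 ± 0.19 log2 in proximal and 7.78 ± 0.25 log2 in sham ganglia (SD, n = 9 each), a 2.25-fold rise (log2 1.17, SE 0.105, adjusted p = 5.14e-13, limma). The rise was called under every one of the 13 alternative settings and after leaving out any of the 18 arrays.

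**Figure D1:**
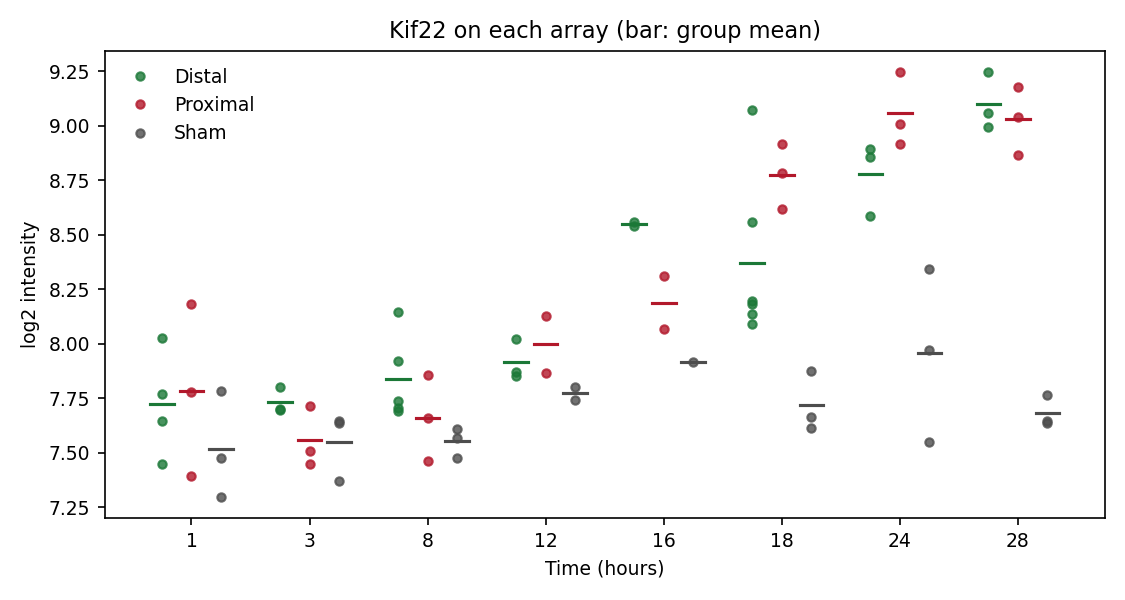
Log2 level of Kif22 (vertical axis) by time in hours (horizontal axis) in distal, proximal and sham ganglia, with 1 point per array. From 18 h the proximal arrays sit at 8.62 and above and the sham arrays at 8.34 and below, while at 1 to 8 h proximal arrays (7.39 to 8.18) and sham arrays (7.30 to 7.78) overlap.

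Kif22 was called at each of the late hours taken alone. The difference between proximal and sham was 2.08-fold at 18 h (adjusted p = 0.000127, limma), 2.15-fold at 24 h (adjusted p = 4.6e-05) and 2.55-fold at 28 h (adjusted p = 3.35e-07). At 18 h the arrays of both labels were split over 2 technical sets. The log2 difference was 0.93 between 2 proximal and 2 sham arrays of set B and 1.30 between 1 and 1 array of set C. At 24 and 28 h all proximal and sham arrays lay in set D.

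Of the other mitotic kinesins only Kif15 was called. Kif15, a spindle kinesin that is also known from growing axons, had log2 levels in proximal ganglia of 6.69, 6.75 and 5.56 at 18 h, 6.07, 5.95 and 5.74 at 24 h and 5.58, 5.54 and 5.61 at 28 h. In sham ganglia they were 5.38, 6.16 and 5.30 at 18 h, 5.68, 5.89 and 5.48 at 24 h and 5.45, 5.31 and 5.44 at 28 h. The groups overlapped, with 2 of 9 proximal arrays, both from 18 h, above all sham arrays. The rise was 1.30-fold (log2 0.38, SE 0.113, adjusted p = 0.0206, limma), and it was called at 18 h (1.64-fold, adjusted p = 0.0412) but not at 24 or 28 h. Without the 18 h arrays the log2 difference was 0.21 (adjusted p = 0.19), and the call also ended without any 1 of 6 single arrays (proximal 18 h a and b and 24 h a, sham 18 h a and c and 24 h c), with adjusted p up to 0.0818. It ended as well with another quantile normalization (adjusted p = 0.0511) and when only the compared arrays were fitted (adjusted p = 0.162). Within technical set D, at 24 and 28 h, the log2 difference was 0.21 (adjusted p = 0.175). The mean of Kif15 over all arrays, 5.765 log2, lay near the filter level of 5.46 log2. Kif11, which slides spindle microtubules apart, differed by a log2 of 0.04, and Kif2c, which shortens microtubules at chromosomes, by -0.04, neither called. The cytokinesis kinesins Kif14, Kif20a and Kif23 differed by -0.15, -0.10 and 0.03 and were not called.

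Dividing cell markers were mostly not called in this comparison. Of 12 tested markers (18 listed) 0 were higher and 1 was lower, Racgap1, and their mean level per array was 6.42 to 6.61 log2 in proximal and 6.51 to 6.82 log2 in sham ganglia. Macrophage markers were higher, 6 of 12 called, with array means of 7.51 to 8.47 log2 in proximal and 7.11 to 7.77 log2 in sham ganglia, and their part in the Kif22 rise was not tested.

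Kif3b was the only called kinesin-2 gene and pairs with Kif3a to carry vesicles in axons and particles in cilia. Its log2 levels in proximal ganglia were 10.20, 10.30 and 9.99 at 18 h, 9.98, 9.90 and 10.09 at 24 h and 9.84, 9.86 and 9.80 at 28 h. In sham ganglia they were 9.77, 9.85 and 9.55 at 18 h, 9.75, 9.81 and 9.93 at 24 h and 9.70, 9.73 and 9.76 at 28 h. The groups overlapped, with 5 of 9 proximal arrays above all sham arrays. The rise was 1.18-fold (log2 0.24, SE 0.077, adjusted p = 0.0369, limma), while a dimmer probe set of Kif3b differed by 0.14 and was not called. The call ended without the 18 h arrays (log2 0.13, adjusted p = 0.439) and without any 1 of 12 of the 18 single arrays (adjusted p up to 0.0879), namely proximal 18 h a and b, 24 h a and c and 28 h a, b and c, and sham 18 h c, 24 h a and b and 28 h a and b. When every probe set was tested the adjusted p was 0.0605, and within technical set D it was 0.355. Kif3a differed by a log2 of 0.28 (adjusted p = 0.188), with 3 of 9 proximal arrays above all sham arrays. Kif3c, a neuronal partner of Kif3a, differed by -0.03.

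The promoters of the 3 motor genes that rose are shown because they are the members that moved in the same direction late after the proximal lesion. The sequences are RefSeq's for assembly GRCr8, from 250 bases before to 50 bases after the annotated gene start, written 5′ to 3′ on the gene's strand, with Kif22 at chr1:191080829-191081128 (minus strand), Kif15 at chr8:131479154-131479453 (plus strand) and Kif3b at chr3:162218438-162218737 (plus strand). Capitals mark matches, on either strand, to the motifs CCAAT (a common promoter box), TTTGAA (CHR, an element of cell cycle genes), TGACTCA (AP-1), TGACGTCA (CRE), TTCNNNGAA (STAT) and GGGCGG (SP1).
Kif22: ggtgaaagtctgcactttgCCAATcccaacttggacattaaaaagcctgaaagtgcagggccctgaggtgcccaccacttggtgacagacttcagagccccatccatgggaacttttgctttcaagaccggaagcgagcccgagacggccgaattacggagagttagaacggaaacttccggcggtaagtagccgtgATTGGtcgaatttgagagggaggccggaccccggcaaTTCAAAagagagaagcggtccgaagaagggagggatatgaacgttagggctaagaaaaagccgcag
Kif15: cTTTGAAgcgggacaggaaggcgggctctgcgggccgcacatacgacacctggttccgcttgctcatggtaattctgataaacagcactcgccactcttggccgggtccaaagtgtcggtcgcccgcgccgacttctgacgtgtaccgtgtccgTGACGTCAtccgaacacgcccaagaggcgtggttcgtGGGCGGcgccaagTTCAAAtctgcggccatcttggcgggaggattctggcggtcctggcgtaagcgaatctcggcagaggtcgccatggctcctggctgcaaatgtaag
Kif3b: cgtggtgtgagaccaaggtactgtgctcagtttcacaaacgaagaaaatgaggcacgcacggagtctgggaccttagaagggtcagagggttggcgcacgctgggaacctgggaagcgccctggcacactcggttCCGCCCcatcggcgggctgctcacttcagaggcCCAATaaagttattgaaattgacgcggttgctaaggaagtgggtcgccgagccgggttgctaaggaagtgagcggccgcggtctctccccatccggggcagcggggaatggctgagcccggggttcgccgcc
In Kif22 a CCAAT match began at base -231 and another, on the other strand, at -53, followed by a TTTGAA match on the other strand at -16. Kif15 held TTTGAA at -249 and, on the other strand, at -46, with TGACGTCA at -96 and GGGCGG at -59. Kif3b held CCAAT at -82 and GGGCGG on the other strand at -115. Of 33469 rat promoters of this length, 37.5% held CCAAT, 18.3% TTTGAA, 4.6% TGACTCA, 1.8% TGACGTCA, 8.9% TTCNNNGAA and 33.1% GGGCGG. The table gave promoters for 42 of the motor genes, of which 15 held CCAAT, 6 TTTGAA, 2 TGACTCA, 5 TGACGTCA, 3 TTCNNNGAA and 28 GGGCGG. The motif TTTGAA can lie inside TTCNNNGAA, and a match is a run of letters only.

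Dctn1, the dynactin subunit that binds both dynein and the microtubule, was the only one of the 5 dynactin genes called. Its log2 levels in proximal ganglia were 12.20, 12.23 and 11.74 at 18 h, 12.01, 12.19 and 12.08 at 24 h and 12.20, 12.15 and 12.10 at 28 h. In sham ganglia they were 12.37, 12.36 and 12.42 at 18 h, 12.38, 12.40 and 12.44 at 24 h and 12.41, 12.32 and 12.37 at 28 h. All 9 proximal arrays lay below all 9 sham arrays, with a fall of 1.22-fold (log2 -0.29, SE 0.080, adjusted p = 0.0115, limma). Sham arrays were close together (SD 0.034 log2, n = 9) beside the proximal arrays (SD 0.152 log2, n = 9). At 18 h the difference was -0.15 within technical set B (2 against 2 arrays) and -0.68 within set C (1 against 1). The call ended without the 18 h arrays (log2 -0.27, adjusted p = 0.0608) and against the pooled sham arrays of all hours (log2 -0.02, adjusted p = 0.933).

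The remaining dynactin genes were not called. Dctn2, for dynamitin, which joins the arm of dynactin to its filament, differed by -0.01, and the pointed-end subunits Dctn4, Dctn5 and Dctn6 by 0.08, -0.07 and -0.03.

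Kif26b, an atypical kinesin known from kidney development, had the largest fall of the motor genes. In proximal ganglia its log2 levels were 8.33, 8.40 and 7.13 at 18 h, 7.85, 7.48 and 7.74 at 24 h and 7.38, 7.25 and 7.40 at 28 h. In sham ganglia they were 8.83, 8.92 and 7.57 at 18 h, 8.12, 8.25 and 7.96 at 24 h and 8.23, 8.03 and 7.86 at 28 h. The groups overlapped, with 5 of 9 proximal arrays below all sham arrays, and the fall was 1.45-fold (log2 -0.53, SE 0.143, adjusted p = 0.00825, limma). The lowest array under each label was from 18 h, array c, in technical set C. The 3 dimmer probe sets of Kif26b differed by -0.19, 0.04 and -0.17 and were not called, and the main call ended when only the compared arrays were fitted (adjusted p = 0.0982).

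Sensory neuron markers were also lower in part in this comparison, 0 of 16 called higher and 4 lower, with array means of 11.44 to 11.70 log2 in proximal and 11.55 to 11.94 log2 in sham ganglia. Their part in the falls of Dctn1 and Kif26b was not tested. Of the satellite glia, Schwann cell, endothelium and fibroblast, and skeletal muscle markers 0 were called (2, 0, 2 and 0 at an unadjusted p under 0.05).

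**Figure D2:**
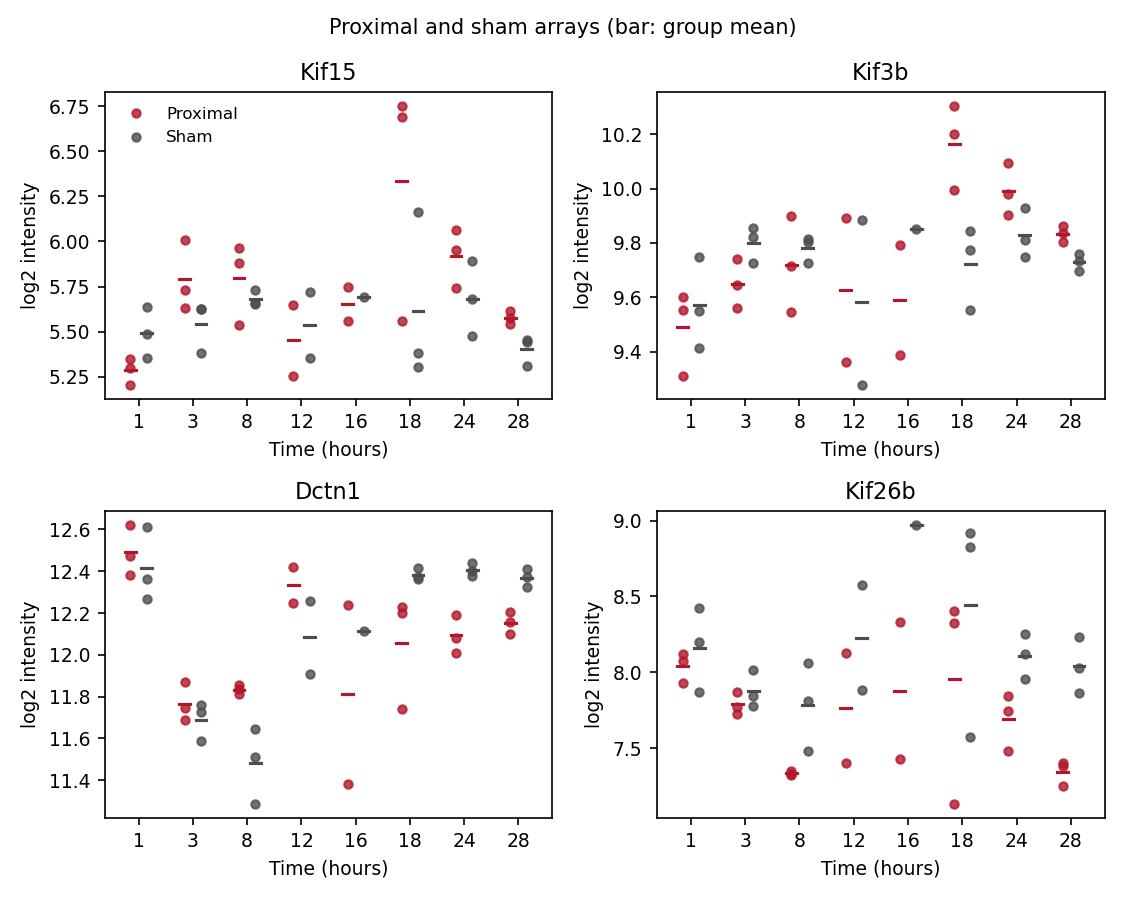
Log2 level of Kif15, Kif3b, Dctn1 and Kif26b (vertical axes) by time in hours (horizontal axes) in proximal and sham ganglia, with 1 point per array. For Dctn1 every proximal array from 18 h lies below every sham array from 18 h, and for Kif15, Kif3b and Kif26b the groups overlap.

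Of the 5 genes of cytoplasmic dynein 1, 0 were called late after the proximal lesion, with 1 at an unadjusted p under 0.05. Dync1h1, the heavy chain that holds the motor, had log2 levels of 11.07, 11.95 and 12.80 (lowest, median and highest of 9 arrays) in proximal ganglia, against 11.21, 11.91 and 12.54 in sham ganglia. The groups overlapped almost fully, and the difference was 0.12 (adjusted p = 0.693, limma). Dync1i1, the intermediate chain most used in neurons, had 11.90, 12.06 and 12.22 log2 in proximal against 12.04, 12.21 and 12.32 log2 in sham ganglia, a difference of -0.12 (adjusted p = 0.0806) with 4 of 9 proximal arrays below all sham arrays. It was called in 5 of 13 alternative settings. The ubiquitous intermediate chain gene Dync1i2 differed by 0.05. The light intermediate chain genes Dync1li2 and Dync1li1, whose products hold cargo adaptors, differed by 0.02 and -0.22.

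The light chains and cytoplasmic dynein 2 had no called gene either. Of the 7 light chain genes Dynlt1 had the largest difference upward (log2 0.22, adjusted p = 0.152, limma) and Dynlrb2 the largest downward (-0.22, adjusted p = 0.172), and 2 of the 7 had an unadjusted p under 0.05. Dynlt1 was called in 5 of 13 alternative settings. Dynll2, Dynlrb1 and Dynlt3 differed by -0.02, 0.03 and 0.10, and Dynlt2b and Dynlt5 by -0.09 and -0.11. The 4 genes of cytoplasmic dynein 2, which returns particles from the tip of the cilium, lay between -0.07 and 0.11, and 0 had an unadjusted p under 0.05.

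Kinesin-1, the main outward axonal motor, had 0 of 7 genes called, with 1 at an unadjusted p under 0.05. Among its heavy chains, Kif5c ranged most: it had 7.48, 8.49 and 9.34 log2 (lowest, median and highest of 9) in proximal and 6.05, 8.56 and 8.89 log2 in sham ganglia. That overlap left a log2 difference of 0.47 with an SE of 0.282 (adjusted p = 0.378, limma). Kif5a, the neuronal heavy chain whose mutations cause hereditary spastic paraplegia in people, differed by -0.17 and the widely used heavy chain Kif5b by 0.07. The cargo-binding light chains Klc1, Klc2, Klc3 and Klc4 differed by -0.01, -0.23, -0.10 and 0.09.

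Of the 4 kinesin-3 genes 0 were called and 0 had an unadjusted p under 0.05. Kif1a, which carries synaptic vesicle precursors, differed by -0.05, Kif1c by -0.005, Kif13a by -0.05 and Kif16b, an endosome motor, by -0.03. Kif2a, which shortens microtubule ends in axons, differed by 0.10, and the interphase kinesins Kif7, Kif12 and Kif21a by -0.05, -0.08 and 0.03, none called.

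**Figure D3:**
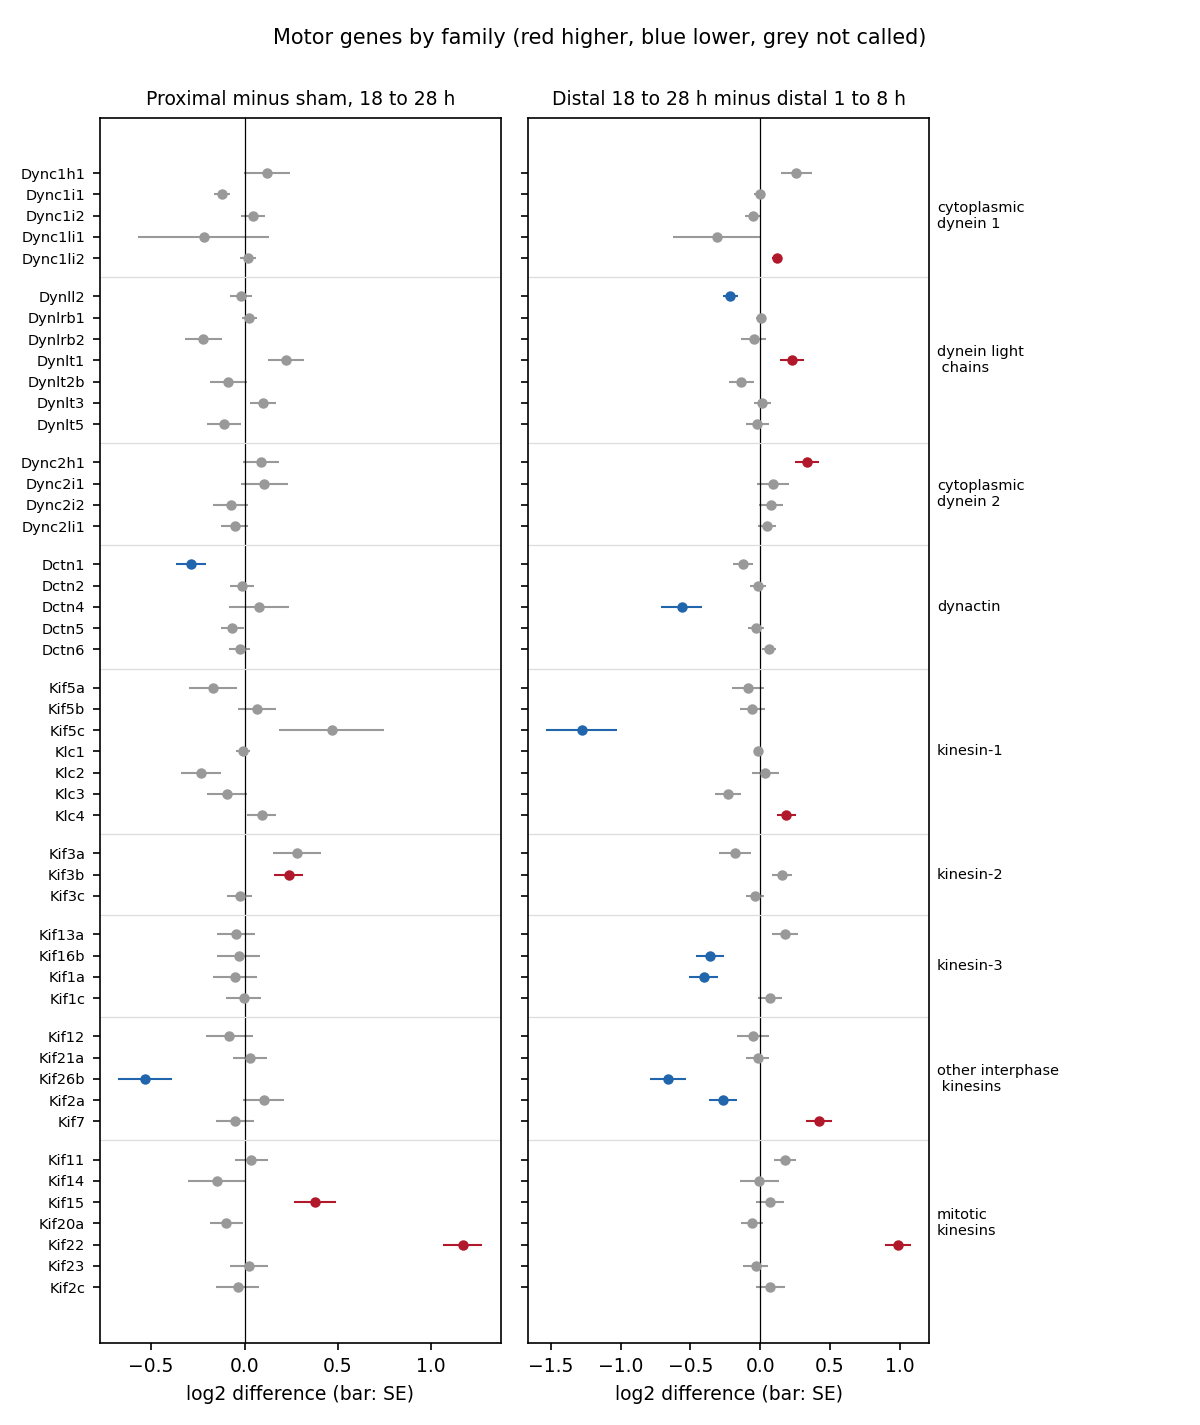
Log2 differences of the 47 motor genes (horizontal axis) by family (vertical axis), in the late comparison of proximal with sham ganglia (left) and in the distal time course (right), with bars for the SE and called genes in red (higher) or blue (lower). On the left Kif22 stands at 1.17 and Kif26b at -0.53, and on the right Kif22 at 0.99 and Kif5c at -1.28.

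Before 18 h no motor gene was called between proximal and sham ganglia. At 1 to 8 h 0 of 47 were called (2 at an unadjusted p under 0.05, beside 11.3% of all genes), where 0.114% of all genes were called higher and 0.0163% lower. At 12 and 16 h 0 of 47 were called (3 at an unadjusted p under 0.05, beside 14.1% of all genes), where 0.057% of all genes were called higher and 0.057% lower. Alternatives gave 0 to 4 calls at 1 to 8 h (4 with array weights) and 3 lower calls with the array letter as a replicate block at 12 and 16 h (Kif16b, Dync2li1 and Kif26b). Of all called genes 87.5% were higher at 1 to 8 h and 50% at 12 and 16 h, and 72.7% and 61.1% with another quantile normalization. The median difference was 0.003 over motor genes and 0.036 over all genes at 1 to 8 h, and -0.014 and -0.062 at 12 and 16 h.

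Hour by hour, the motor genes called were 0 at 1, 3, 8, 12 and 16 h, 2 at 18 h (Kif22 and Kif15), 1 at 24 h and 1 at 28 h (both Kif22). Of all genes, 0% were called at 1 h, 0% at 3 h, 1.75% at 8 h, 0.0326% at 12 h, 0.0489% at 16 h, 1.51% at 18 h, 1.21% at 24 h and 4.47% at 28 h. At an unadjusted p under 0.05 the motor genes numbered 1, 0, 4, 3, 4, 8, 6 and 3 over the same hours, beside 2.01%, 2.5%, 12.8%, 5.9%, 11%, 10.9%, 7.27% and 11.7% of all genes. With the technical set as a fixed block 3 motor genes were called at 8 h, Dctn1 (log2 0.35) and Kif3c (0.34) higher and Kif14 (-0.47) lower, Kif3b, Dync2h1 and Kif26b were called besides at 18 h, and Kif26b at 28 h. With another quantile normalization the 18 h calls were Kif22 and Kif3b, without Kif15, and Kif26b was called at 28 h. Dync1h1 was not called at any hour but had an unadjusted p under 0.05 at 8 h (log2 0.45) and at 18 h (log2 0.49). The same held for Kif5c at 24 h (log2 1.24, SE 0.488), where the sham arrays had 8.19, 6.05 and 6.70 log2.

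Whether the difference between proximal and sham itself changed from the early to the late window was tested as an interaction. It was called for 3 motor genes, Kif22 (log2 1.04, adjusted p = 1.21e-06, limma), Kif3b (0.33, adjusted p = 0.0414) and Dctn1 (-0.46, adjusted p = 0.00569), beside 3.03% of all genes called higher and 5.64% lower. In Kif22 the early difference was small, with 7.39, 7.66 and 8.18 log2 (lowest, median and highest of 9) in proximal and 7.30, 7.57 and 7.78 log2 in sham ganglia at 1 to 8 h. In Dctn1 the early arrays had 11.69, 11.85 and 12.62 log2 in proximal and 11.29, 11.73 and 12.61 log2 in sham ganglia, a far wider spread than later. Pooling all sham arrays turned the Dctn1 value to 0.07, and within set D (24 and 28 h against 1 h) 0 motor genes were called, with Kif22 at 0.96 (adjusted p = 0.0638), Dctn1 at -0.34 (adjusted p = 0.135) and Kif3b at 0.21 (adjusted p = 0.523). The Kif3b call ended in 20 of 36 fits that left out 1 array, with adjusted p up to 0.0726.

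The distal time course, 18 to 28 h against 1 to 8 h within distal ganglia, compared arrays nearly all of technical set A, 12 in each window. It had more motor gene calls, 6 higher and 7 lower of 47, beside 15.4% of all genes called higher and 9.87% lower. The median over motor genes was -0.014, and 0.026 over all genes. The genes that rose were Kif22, Kif7, Dync2h1, Dynlt1, Klc4 and Dync1li2, and those that fell were Kif5c, Kif26b, Dctn4, Kif1a, Kif16b, Kif2a and Dynll2.

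Kif22 rose in the distal series as well. Its log2 level was 8.09, 8.72 and 9.25 (lowest, median and highest of 12 arrays) at 18 to 28 h, against 7.45, 7.72 and 8.14 at 1 to 8 h, with 10 of 12 late arrays above all early arrays. The rise was 1.98-fold (log2 0.99, SE 0.094, adjusted p = 3.16e-12, limma). By hour, distal arrays had 7.87, 7.85 and 8.02 log2 at 12 h, 8.54 and 8.56 at 16 h, 8.20, 9.07, 8.56, 8.13, 8.09 and 8.18 at 18 h, 8.89, 8.58 and 8.86 at 24 h and 9.25, 8.99 and 9.06 at 28 h. Both 16 h arrays already lay above every earlier array. Dividing cell markers had 0 of 12 higher and 3 lower in this comparison, with array means of 6.26 to 6.49 log2 late and 6.34 to 6.67 log2 early.

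Among outward motors of the axon, Kif5c fell most. Its late distal arrays had 6.74, 7.27 and 7.71 log2, against 6.88, 8.63 and 9.09 log2 in early distal arrays (lowest, median and highest of 12), and the overlap came from 2 early arrays at 8 h. The fall was 2.42-fold (log2 -1.28, SE 0.254, adjusted p = 9.4e-05, limma). Kif1a had 7.64, 7.72 and 8.12 log2 late against 7.69, 8.24 and 8.46 log2 early and fell 1.32-fold (adjusted p = 0.00261). The endosome kinesin Kif16b had 8.42, 9.32 and 9.42 log2 late against 9.16, 9.61 and 9.80 log2 early and fell 1.28-fold (adjusted p = 0.00669). For both, 3 of 12 late arrays lay below all early arrays. The dimmer probe sets of Kif1a stood at -0.15 and -0.36 and were not called. Kif2a fell 1.20-fold (adjusted p = 0.0423), a call that ended in 17 of 24 fits that left out 1 array (adjusted p up to 0.0894), within set A (adjusted p = 0.0814) and without the 18 h arrays (adjusted p = 0.0994).

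Kif26b fell over time in the distal series. It had 7.37, 7.78 and 7.99 log2 late against 7.92, 8.35 and 8.85 log2 early, with 9 of 12 late arrays below all early arrays, a fall of 1.58-fold (log2 -0.66, adjusted p = 7.58e-05, limma). The next brightest of its probe sets fell by 0.64 on the log2 scale (adjusted p = 0.00986 over all probe sets). That probe set also fell within sham, at -1.01 (adjusted p = 0.000275 over all probe sets, limma). The remaining Kif26b probe sets stood at 0.17 and -0.09 in the distal series and were not called. The brightest probe set had means at 18 to 28 h and 1 to 8 h of 7.66 and 7.72 log2 in proximal and 8.20 and 7.94 log2 in sham ganglia (n = 9 each). Its late minus early difference between proximal and sham was not called.

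On the dynein and dynactin side, the pointed-end subunit gene Dctn4 had 8.38, 8.80 and 9.25 log2 late against 8.64, 9.42 and 9.65 log2 early and fell 1.48-fold (adjusted p = 0.00245, limma). Dynll2, a light chain that also serves myosin V, had 12.45, 12.50 and 12.85 log2 late against 12.54, 12.72 and 12.95 log2 early and fell 1.16-fold (adjusted p = 0.00183), with 7 of 12 late arrays below all early arrays. The cilium dynein heavy chain Dync2h1 rose 1.26-fold (adjusted p = 0.00197), with 8.18, 8.52 and 8.83 log2 late against 7.83, 8.29 and 8.73 log2 early. Dync1li2 rose 1.09-fold (adjusted p = 0.0129), with 12.34, 12.62 and 12.77 log2 late against 12.44, 12.52 and 12.61 log2 early. It was also higher late in sham ganglia, with means of 12.61 log2 late and 12.47 log2 early (n = 9 each). Dynlt1 rose 1.17-fold (adjusted p = 0.0433). Dctn1 was not called in the distal series (log2 -0.12, adjusted p = 0.215), nor was Dync1h1 (0.26, adjusted p = 0.0793). Dync1h1 was called there in 6 of 12 alternative settings.

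Kif7, a kinesin of the cilium tip in Hedgehog signalling, rose 1.34-fold (log2 0.42, adjusted p = 0.000472, limma), with 6.27, 6.52 and 7.22 log2 late against 5.84, 6.32 and 6.76 log2 early. The light chain gene Klc4 rose 1.14-fold (adjusted p = 0.0427). In sham ganglia Klc4 was also higher late, with means of 8.59 log2 late and 8.38 log2 early (n = 9 each). The distal Klc4 and Dynlt1 calls ended in 13 and 17 of 24 fits that left out 1 array, with adjusted p up to 0.0801 and 0.0962, and when only the compared arrays were fitted (adjusted p = 0.0561 and 0.0624).

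Markers of several cell types were called in the distal time course. Of 16 tested sensory neuron markers 0 were higher and 7 lower, with array means of 11.63 to 11.93 log2 late and 11.75 to 12.13 log2 early. Of 11 endothelium and fibroblast markers 0 were higher and 4 lower, with array means of 9.04 to 9.85 log2 late and 9.60 to 10.02 log2 early. Of 6 satellite glia markers 3 were higher and 0 lower (11.10 to 11.73 log2 late and 11.06 to 11.48 log2 early), of 8 Schwann cell markers 3 were higher and 1 lower (10.91 to 11.47 log2 late and 11.03 to 11.52 log2 early), and of 12 macrophage markers 5 were higher and 2 lower (7.44 to 7.97 log2 late and 7.44 to 7.87 log2 early). Of 7 skeletal muscle markers 0 were called. The part of these cell types in the motor genes' values was not tested.

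Within sham ganglia the same time contrast gave 11 motor genes higher and 1 lower, beside 35.4% of all genes higher and 4.94% lower. Of the genes that rose in the distal series, Kif7, Dync1li2 and Klc4 were also called higher here. Their sham calls ended with the technical set as a fixed or random block. The all-gene median moved by 0.154 in this contrast, and that of the motor genes by 0.088. Of all called genes 87.8% were higher, 74.9% with another quantile normalization and 47.5% with the technical set as a block. The largest rises were Kif5a (log2 0.54), Dctn1 (0.525) and Kif7 (0.37), and Kif22 was not called (0.24, adjusted p = 0.0568, limma). Late sham arrays lay mostly in set D and early ones in sets C and D, so the contrast over all arrays mixes time with technical set. Set D held sham arrays of 1 h (3 arrays) and of 24 and 28 h (6 arrays), and within it 1 motor gene was called and Dctn1 stood at -0.03.

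Probe sets of the same kinesin-1 gene differed in the distal time course. Of the 47 motor genes 19 had more than 1 probe set, with 31 dimmer probe sets, and of these 3 were called higher and 11 lower late in the distal series, beside 10.5% of all 31042 probe sets called higher and 11.3% lower. The brightest probe sets of Kif5a, Kif5b and Klc1 barely moved (log2 -0.08, -0.06 and -0.01, not called). At least 1 dimmer probe set of each of these genes fell.

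The second probe set of Kif5b had 9.09, 9.46 and 9.85 log2 late against 9.52, 10.34 and 10.63 log2 early in distal ganglia and fell by 0.85 on the log2 scale (adjusted p = 0.00129 over all probe sets, limma). The second probe set of Klc1 had 10.65, 11.20 and 11.53 log2 late against 10.96, 12.04 and 12.39 log2 early and fell by 0.79 (adjusted p = 0.00271). The other dimmer probe sets of Klc1 stood at 0.24 (adjusted p = 0.0937) and -0.18 (adjusted p = 0.283) and were not called. Both dimmer probe sets of Kif5a fell, by 0.61 (adjusted p = 0.000256) and 0.93 (adjusted p = 0.000111). The late and early arrays of each overlapped, through early arrays at 8 h and, for Kif5a and Kif5b, through the 1 h array labelled do.

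In Kif5c the order was the other way, with the brightest probe set at -1.28 and dimmer ones at -0.11 and 0.04. Kif2a was called lower by all 3 of its probe sets (-0.27, -0.49 and -0.43). Kif16b had 5 probe sets, at -0.36, -0.42, -0.21, 0.32 and -0.80, of which 3 were called lower and 1 higher. The spindle motor gene Kif11 was called higher by its dimmer probe set (0.40, adjusted p = 0.000232) and not by its brighter one (0.18).

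**Figure D4:**
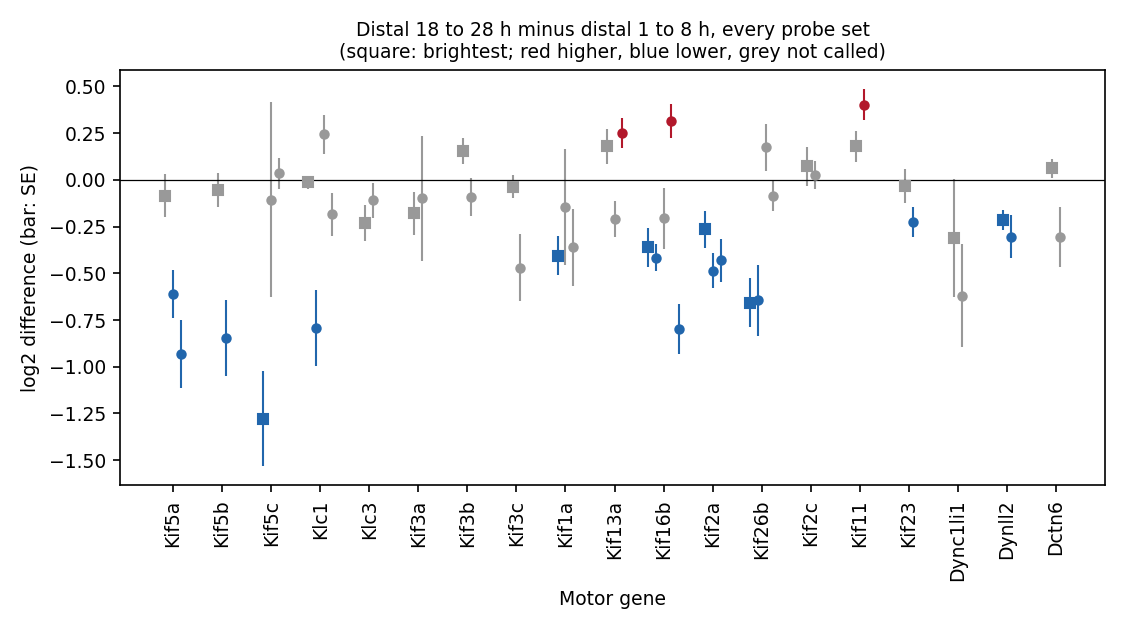
Log2 difference between 18 to 28 h and 1 to 8 h in distal ganglia (vertical axis) for every probe set of the 19 motor genes with more than 1 (horizontal axis), with bars for the SE, squares for the brightest probe set and called ones in red (higher) or blue (lower). For Kif5a, Kif5b and Klc1 the squares lie near 0 (-0.08, -0.06 and -0.01) and the second probe sets at -0.61, -0.85 and -0.79.

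None of these dimmer probe sets was called between proximal and sham ganglia. Late after the proximal lesion 0 of the 31 dimmer probe sets were called (1 at an unadjusted p under 0.05), beside 3.08% of all probe sets called higher and 1.9% lower. The dimmer Kif5b probe set had a difference of 0.25 and the second Klc1 probe set 0.04. In the 12 h array a of sham these probe sets were low together. It had 6.72 log2 for the dimmer Kif5b probe set, 8.76 for the second Klc1 probe set and 5.75 for Kif5c. The 12 h array b of sham had 9.80, 11.38 and 8.17. Array a lay in technical set C and array b in set B. The brightest Kif5b and Klc1 probe sets differed by far less between these arrays, with 11.96 and 12.33 for Kif5b and 13.13 and 13.22 for Klc1. Other motor genes differed between these arrays in both directions. Dctn4 and Kif3a had 7.91 and 7.88 log2 in array a against 8.87 and 9.28 in array b. Kif14 and Klc2 had 7.11 and 11.56 log2 in array a against 5.51 and 10.83 in array b. What sets these arrays apart was not tested.

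Distal against sham ganglia at 18 to 28 h gave 14 motor genes higher, 18 lower and 15 not called, beside 32.3% of all genes called higher and 29.5% lower (52.3% of the called genes were higher, and 42.6% with another quantile normalization). The largest values were 2.50 for Dync1li1, 0.97 for Kif22, -0.76 for Kif5c, -0.67 for Dctn1 and -0.65 for Kif1a on the log2 scale. These are values of the brightest probe sets. The dimmer probe sets of Kif1a stood at 0.97 (adjusted p = 0.00982 over all probe sets, limma) and 0.28 (not called). Those of Kif5c had late means of 9.329 and 5.153 log2 in distal against 6.355 and 5.256 log2 in sham ganglia. All 12 distal arrays lay below all 9 sham arrays for Dctn1, at 11.45, 11.69 and 12.05 log2 (lowest, median and highest) in distal against 12.32, 12.38 and 12.44 log2 in sham ganglia. For Kif22 8 of 12 distal arrays lay above all sham arrays. Since all but 1 of these distal arrays lay in technical set A, with no sham array, lesion and set cannot be told apart, and with the set as a random block 0 motor genes were called.

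Dync1li1, a light intermediate chain of dynein, differed widely between proximal and sham arrays of different hours, and alike under both labels. Its brighter probe set lay at 8.34 to 8.84 log2 in proximal and 8.10 to 8.85 log2 in sham ganglia at 24 and 28 h, but at 11.67 to 12.07 log2 in proximal and 11.84 to 12.39 log2 in sham ganglia at 3 and 8 h. Distal arrays stayed between 11.08 and 12.39 log2 at all hours. Within the 18 h group, arrays a, b and c had 7.90, 7.90 and 11.74 log2 in proximal and 9.39, 8.68 and 11.93 log2 in sham ganglia. Under both labels arrays a and b of 18 h lay in technical set B and array c in set C. At 12 h, however, the set B arrays had 11.53 log2 in proximal and 11.94 log2 in sham ganglia. The 16 h arrays lay at 11.47 to 11.68 log2 in proximal and at 12.12 log2 in sham ganglia. In set D, which held the 24 and 28 h arrays, the 1 h arrays b and c had 12.23 and 12.34 log2 in proximal and 12.32 and 12.28 log2 in sham ganglia.

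The dimmer probe set of Dync1li1 ran in the opposite direction. It lay at 8.71 to 9.81 log2 in proximal and 9.33 to 10.20 log2 in sham ganglia at 24 and 28 h, against 7.51 to 8.12 log2 in proximal and 7.58 to 8.18 log2 in sham ganglia at 3 and 8 h. Within sham, late against early, the brighter probe set fell by 2.78 on the log2 scale (adjusted p = 7e-08, limma) and the dimmer one rose by 1.51 (adjusted p = 0.00019 over all probe sets). Between distal and sham at 18 to 28 h the values were 2.50 for the brighter and -1.57 for the dimmer probe set. At 1 h array a alone was low in the brighter probe set, with 9.56 log2 in proximal and 9.18 log2 in sham ganglia, and high in the dimmer one, with 9.81 and 9.59 log2. Between proximal and sham neither probe set was called in any window.

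**Figure D5:**
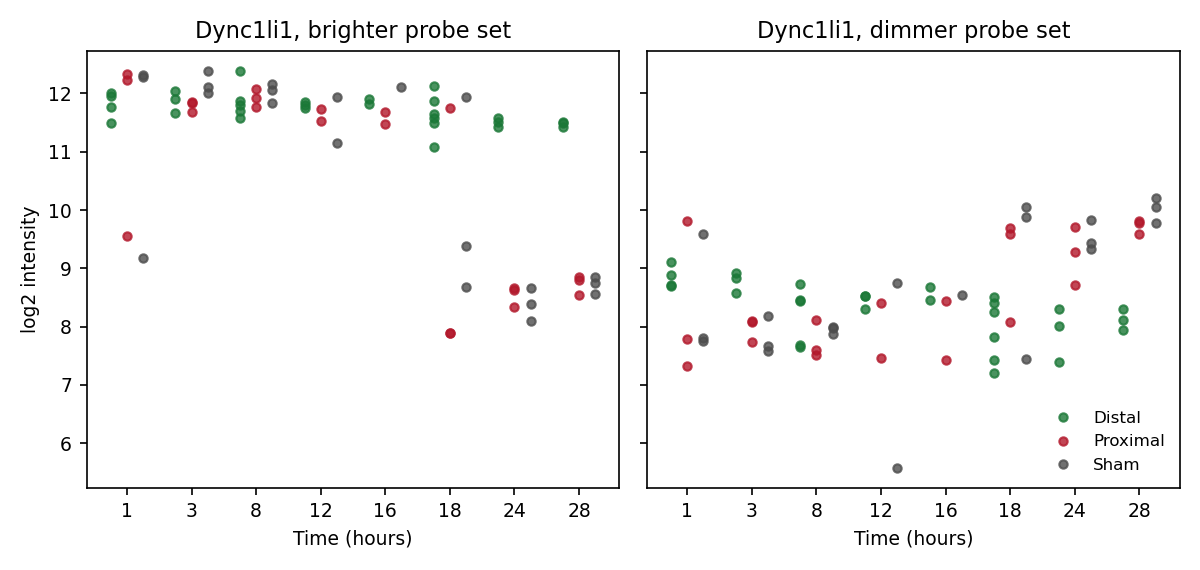
Log2 level of the brighter and the dimmer probe set of Dync1li1 (vertical axes) by time in hours (horizontal axes) in distal, proximal and sham ganglia, with 1 point per array. Proximal and sham arrays at 24 and 28 h lie at 8.10 to 8.85 in the brighter probe set and at 8.71 to 10.20 in the dimmer one, while distal arrays stay above 11 in the brighter one.

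Partners of the motors were counted in the late comparison of proximal with sham ganglia, where 5.35% of all genes were called higher and 4.36% lower. Of 21 tested dynein and dynactin partners 1 was higher, Hook1, for an adaptor that links dynein to endosomes (log2 0.68, adjusted p = 0.00385, limma), and 0 were lower. Of 20 kinesin partners 0 were higher and 2 lower, Snph, for syntaphilin, which anchors axonal mitochondria (-0.37, adjusted p = 0.000608), and Map7, for a microtubule protein that recruits kinesin-1 (-0.37, adjusted p = 0.000851). The median was -0.042 over the dynein partners and -0.066 over the kinesin partners, beside -0.016 over all genes.

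In the distal time course, where 15.4% of all genes were called higher and 9.87% lower, 4 of 21 dynein partners were higher (Hook1, Hook2, Nde1 and Rab7a) and 1 lower (Pafah1b1, for Lis1, which helps dynein start moving, log2 -0.25). Of 20 kinesin partners 1 was higher (Rhot2, for the mitochondrial adaptor Miro, 0.22) and 5 were lower. The lower ones were Map7 (-0.45), the calsyntenin genes Clstn1 (-0.25), Clstn2 (-0.27) and Clstn3 (-0.28), whose products link kinesin light chains to vesicles, and Fez2 (-0.20). Both partner lists were chosen with earlier results of these arrays known, so their counts stand as descriptions.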

How the data were processed

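The authors deposited 1 log2 intensity for each probe set and Affymetrix rat array. RMA is the tool that the submitters' processing notes name, its version is not stated in the sources used here, and neither is whether the arrays were normalized as 1 batch. Array medians lay between 6.88 and 7.08 log2. The number of arrays limits the precision.

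Of 31099 probe sets 57 controls were left out. The platform annotation gave 1 symbol to 20826, several to 436 and none to 9780. Each of 14217 named genes was represented by its brightest probe set over 72 arrays, and genes whose mean fell under the 25th percentile of probe sets (5.46 log2) were dropped. All 52 motor gene symbols matched RefSeq by Entrez identifier.

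Limma 3.58.1 in R 4.3.3 (files read by the package data.table, version 1.17.8) fitted 1 mean for each of 24 groups of lesion and hour (48 residual degrees of freedom) with a trend in the empirical Bayes step. Windows (1, 3 and 8 h, 12 and 16 h, 18, 24 and 28 h) average their hours equally, so a log2 difference need not equal that of the plain means over arrays. Calls are two-sided, at a Benjamini-Hochberg adjusted p under 0.05 over all genes. The lone sham array at 16 h was assumed to vary like the other groups. The fit was tested on simulated data with 200 changed genes.

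Technical sets came from Ward clustering on probe sets below the filter, with the number of sets fixed at 4. Any member may be named. Full values were planned for called members and for the main dynein, dynactin and axonal kinesin genes, with called partner genes (up to 6 per comparison) and Atf3 besides. Members and lists were chosen with earlier results of these data known. Lists were marker lists of 7 cell types or tissues and 2 lists of motor partners. Promoter sequences are RefSeq's (GRCr8). Alternatives covered the filter, another quantile normalization, array weights, every probe set, only the compared arrays, pooled sham arrays, the technical set, the array letter as a replicate block, leaving out the 18 h arrays or those whose letter is followed by o, and leaving out each array in turn. Analyses within 1 technical set were chosen after seeing the data.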

Additional observations from a re-analysis of the deposited data

Results flagged for a closer look

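The difference between proximal and sham ganglia changed from 1 to 8 h to 18 to 28 h, by limma's interaction test, for Kif22 (log2 1.04), Dctn1 (-0.46) and Kif3b (0.33).

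Of 96 groups of 4 to 10 arrays checked over 16 motor genes, 9 held an array that stood apart from the rest by Dixon's criterion. Chance meets it in about 1 in 20 groups of independent arrays that share 1 normal spread. The groups here pooled hours and technical sets and reused the same arrays over genes, so that rate need not hold for them. The proximal 18 h array c had 11.74 log2 for Dctn1, beside 12.01 to 12.23 on the other 8 late proximal arrays. In the early window the 1 h array a stood apart in both proximal and sham ganglia. It had 8.19 log2 for Dctn4 in proximal (the others 9.16 to 9.90) and 8.44 log2 in sham ganglia (the others 9.32 to 9.82), 10.29 log2 for Dynlt1 in proximal ganglia (the others 9.63 to 9.94) and 7.08 log2 for Kif5c in sham ganglia (the others 8.30 to 9.10). These are the 1 h arrays that also stood apart in both probe sets of Dync1li1. The sham 8 h array a had 12.43 log2 for Dynll2 (the others 12.71 to 12.96) and 9.62 log2 for Kif2a (the others 9.87 to 10.10). Among distal arrays at 12 and 16 h, the 12 h array c had 9.19 log2 for Dctn4 (the others 9.56 to 9.70) and the 12 h array b had 10.27 log2 for Dynlt1 (the others 10.49 to 10.57).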

How the results depend on the processing

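Counts of called motor genes were within 1.5 times of those reported unless given here, and the cause of each change was not tested. Late proximal against sham gave 12 with array weights, 8 with the technical set as a fixed block, 3 without the 18 h arrays and 3 with only the arrays compared. At 1 to 8 h there were 4 with array weights, 2 within technical set C, and 1 each with another quantile normalization and the set as a fixed or random block. The late minus early difference gave 14 with array weights, 9 with all sham arrays pooled, 5 each with another quantile normalization and the set as a fixed or random block, and 0 within set D. Hour by hour, a fixed set block gave 11. The distal time course gave 21 with array weights, and distal against sham 0 with the set as a random block. The sham time course gave 35 with array weights, 2 with the set as a random block and 1 within set D. Leaving out each array in turn gave 3 to 6 (late proximal), 0 to 1 (12 and 16 h), 0 to 0 (1 to 8 h), 2 to 4 (late minus early), 10 to 15 (distal time), 29 to 33 (distal against sham) and 10 to 18 (sham time). The lone sham 16 h array could not be left out.

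Direction turned for Dctn1 in the late minus early difference with all sham arrays pooled (0.07), for Dctn1 (-0.026), Dctn2 (-0.016), Dync2i2 (-0.02), Kif3c (-0.092) and Klc1 (-0.016) in sham time within set D, for Kif13a in sham time with a fixed set block (-0.048), and for Dync2i1 (-0.013), Dynlrb1 (-0.009) and Kif2c (0.119) in distal against sham with the set as a random block.

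With the array letter as a replicate block 3 motor genes were called at 12 and 16 h, 6 late after the proximal lesion, 0 early, 4 in the late minus early difference, 13 in distal time, 35 in distal against sham and 12 in sham time. What a letter stands for is not given in the labels. Every same-letter pair of proximal and sham arrays correlated over 0.1 in 2 of 6 hours with 3 pairs, so the letters were not taken as pairs.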
